A study of Mus musculus with 6 samples.

Results

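The genes described here are 10 genes of coenzyme A synthesis and breakdown, out of 15960 genes in an expression table of mouse liver. There are 5 synthesis genes, Pank1, Pank2, Pank3, Ppcs and Coasy, and 5 breakdown genes, Vnn1, Vnn3, Nudt7, Nudt8 and Nudt19. They were chosen by gene symbol with earlier results on the knockout and wild type FPKM values of these same libraries known, so their differences between genotypes are given as a description and nothing is supported by them. All 10 were in the table, and all 10 passed the filter on low values (1 FPKM or more in 3 or more of the 6 libraries). FPKM is a fragment count divided by transcript length and by the size of the library.

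The series compares livers of mice that lack Cyp2e1, a hepatocyte cytochrome P450 whose substrates include ethanol and acetone, with livers of mice that carry it. The knockout group is Cyp2e1-/- and the wild type group is Cyp2e1+/+, with 3 libraries each. Both groups share the strain label C57BL/6, an age of 22 weeks and a high-fat diet that lasted 14 weeks, so that all 6 libraries analysed here are from mice on that diet. The sources used here do not say how the deleted allele was made, what sex the mice were, or whether a library held 1 or several animals. The p-values below therefore measure only the spread between these libraries, which may be technical.

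Coenzyme A carries acyl groups in fatty acid oxidation, fatty acid synthesis and ketone body formation, and liver holds separate pools of it in cytosol, mitochondria and peroxisomes. Pantothenate kinases (Pank genes) start its synthesis from the vitamin pantothenate and set the rate, PPCS adds cysteine to the product, and COASY carries out the final steps. In breakdown, Nudix hydrolases of the Nudt7, Nudt8 and Nudt19 genes cut coenzyme A or its acyl esters inside organelles, and the vanins VNN1 and VNN3, enzymes at the cell surface or outside the cell, split pantetheine into pantothenate and cysteamine. Vnn1 and Pank1 are known target genes of PPARα, a receptor for fatty acids that switches on their oxidation during fasting.

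The main difference among the 10 genes was in Nudt7. Of the other hydrolase genes among the 10, Nudt8 had the larger log2 fold change in the other direction, though it was below its SE (0.25, SE 0.27). The promoters of Nudt7 and Nudt8 are printed to show the sequence upstream of these hydrolase genes. Each is the 250 bases before a RefSeq transcript start on GRCm38.p6, on the plus strand, read 5′ to 3′, at chr8:114133324-114133573 for Nudt7 and chr19:4000330-4000579 for Nudt8. Capitals mark the GC box GGGCGG on either strand, here as its reverse complement.
Nudt7: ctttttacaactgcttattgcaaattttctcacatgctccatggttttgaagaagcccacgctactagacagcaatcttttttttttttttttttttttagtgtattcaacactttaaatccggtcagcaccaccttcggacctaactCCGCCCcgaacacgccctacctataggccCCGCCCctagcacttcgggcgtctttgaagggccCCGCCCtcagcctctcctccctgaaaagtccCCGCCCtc
Nudt8: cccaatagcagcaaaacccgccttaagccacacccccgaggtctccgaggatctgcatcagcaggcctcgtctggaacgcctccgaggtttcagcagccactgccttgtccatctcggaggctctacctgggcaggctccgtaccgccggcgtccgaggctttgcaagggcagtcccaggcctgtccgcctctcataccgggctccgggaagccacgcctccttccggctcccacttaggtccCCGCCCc
Nudt7 held 4 GC boxes in this window and Nudt8 held 1. Of 32851 promoter windows of the same length, 32.7% held at least 1 GC box and 4.09% held at least 4. The nuclear receptor half-site AGGTCA (14.0% of all windows) and the direct repeat AGGTCANAGGTCA (0.0335%), the form bound by PPARα, were in neither window on either strand, and neither was the TATA box TATAAA (12.4%). Among 8 members with 12 windows in the RefSeq table, the half-site was found only in that of Ppcs, the TATA box only in Pank1, and the GC box in Nudt7, Nudt8, Pank2 and Pank3. Vnn1 and Coasy had no window there, so their promoters were not searched. The direct repeat holds the half-site within it. Only exact matches were counted, and the repeat is so rare among all windows that its absence here says nothing about PPARα binding.

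The libraries summed to 562590 to 624265 FPKM. Cyp2e1 itself stood at 257 ± 12.0 FPKM in knockout liver and 6480 ± 823 in wild type (SD, n = 3 each), lower in each library labelled knockout. Knockout replicate 1 correlated more closely with wild type replicate 1 (Pearson 0.985 across tested genes, which are not independent replicates) than with knockout replicates 2 and 3 (0.981 and 0.979). Results that rest on replicate 1 are given with and without it. Marker genes of hepatocytes fitted the tissue label, with a summed level of 41950 to 53150 FPKM in every library. Adipocyte markers summed to at most 0.19 FPKM, and none of 4 kidney markers was in the table. Macrophage markers (5 of 5 in the table) summed to 35.1 to 63.2 FPKM in knockout liver and 64.9 to 70.6 in wild type. Stellate cell markers (4 of 4) summed to 83.3 to 96.5 and 98.4 to 112.8, and cholangiocyte markers (4 of 4) to 18.1 to 21.3 and 24.8 to 32.1. These 3 sums, like Nudt7 and Vnn1 below, were lower in every knockout library, and none of their 10 tested genes (5 of 5, 4 of 4 and 1 of 4) passed the threshold used throughout, an adjusted p under 0.05 in limma. Their part in the differences was not tested. The sums of endothelial, lymphocyte and red blood cell markers overlapped between genotypes. Red blood cell markers (3 of 4 in the table, 2 tested) summed to 122.9 to 236.3 FPKM in knockout liver and 144.0 to 343.3 in wild type, highest in replicate 1 of each. One of them, the erythroid heme synthesis gene Alas2, fell, from 47.9 ± 3.30 to 9.43 ± 0.859 FPKM (SD, n = 3 each; limma, adjusted p = 2.0e-05), and its part in the differences was not tested either. In whole liver, fewer cells of a type and less RNA per cell cannot be told apart.

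In wild type liver the most abundant of the 10 mRNAs per unit length was Nudt7, at 271 FPKM, 5.07 times the next, Pank1, and 60.3 times the last, Pank2. Pank1 (53.4 FPKM) and Coasy (52.8) followed with overlapping values, then Vnn1 (35.4), Vnn3 (28.1), Nudt19 (20.6), Nudt8 (16.0), Ppcs (11.3), Pank3 (10.6) and Pank2 (4.49). The values of neighbours in this order overlapped for Pank1 and Coasy, for Nudt19 and Nudt8, and for Ppcs and Pank3. The other neighbours did not overlap. In the knockout the order by mean was the same except that Vnn3 stood before Vnn1. The members lie apart in the genome except for the vanin pair. On GRCm38 the synthesis genes are at chr19:34806935-34883423 (Pank1, minus strand), chr2:131262008-131299188 (Pank2, plus), chr11:35769495-35791285 (Pank3, plus), chr4:119418527-119422440 (Ppcs, minus) and chr11:101082565-101086619 (Coasy, plus). Of the breakdown genes, Vnn3 is at chr10:23851462-23869843 and Vnn1 at chr10:23894688-23905344, both on the plus strand, and Nudt19 is at chr7:35547185-35558643 on the minus strand.

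**Figure D1:**
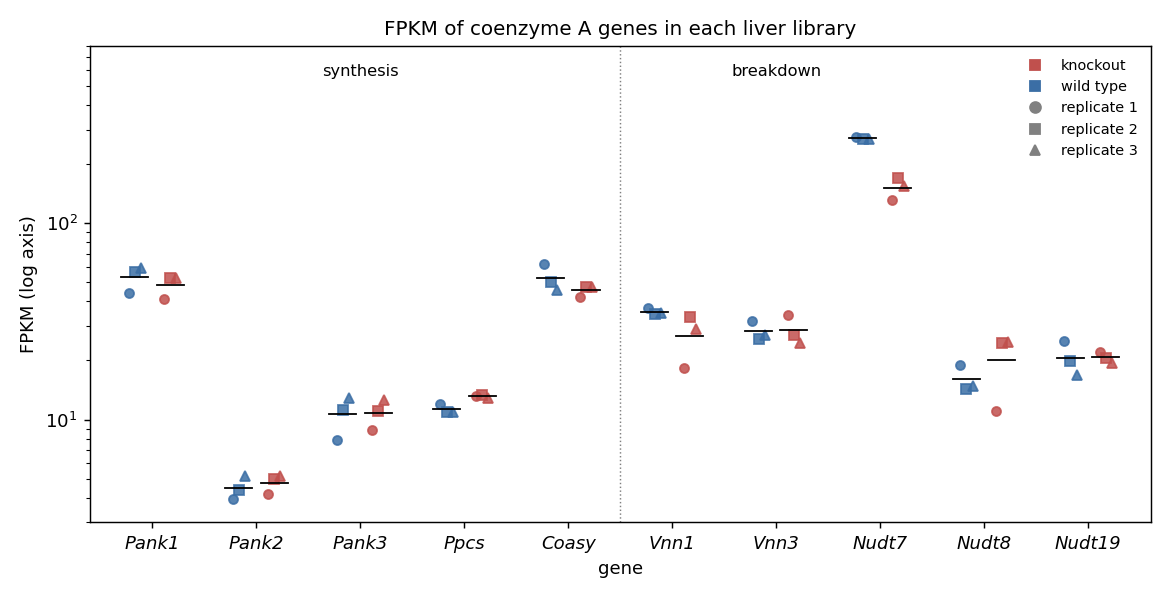
FPKM of each of the 10 genes (log axis) in every library, wild type in blue and knockout in red, with the marker shape giving the replicate number and the short line the group mean. Nudt7 lies between 131 and 169 FPKM in knockout liver and between 269 and 275 in wild type, while most other genes overlap between genotypes.

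No pantothenate kinase gene passed the threshold, and in each the ranges of the genotypes overlapped. Pank1, which encodes the main kinase of liver, held 41.1, 52.6 and 52.3 FPKM in knockout replicates 1 to 3 and 44.2, 56.7 and 59.4 in wild type replicates 1 to 3. The groups overlapped, and the lowest value of each was in replicate 1. The means were 48.7 ± 6.55 and 53.4 ± 8.12 FPKM (SD, n = 3 each), a log2 fold change (knockout minus wild type on log2(FPKM + 1), as throughout) of -0.13 with a 95% interval of -0.47 to 0.21 in the fit without pairing. Between libraries of the same number, which the labels do not call pairs, Pank1 was lower in the knockout in 3 of 3. With the replicate as a block it did not pass either (limma, adjusted p = 0.64).

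Pank2, whose product is the mitochondrial kinase, held 4.20, 4.98 and 5.14 FPKM in knockout liver and 3.92, 4.40 and 5.16 in wild type. Pank3, a cytosolic kinase, held 8.81, 11.05 and 12.54 FPKM in knockout liver and 7.86, 11.21 and 12.85 in wild type. In both genes the groups overlapped almost throughout, and replicate 1 was again the lowest library of each genotype. Their log2 fold changes were 0.07 (95% interval -0.26 to 0.41) and 0.03 (-0.40 to 0.46). Pank1 made up 74.8% to 76.6% of the summed FPKM of the 3 kinase genes in knockout liver and 76.7% to 79.0% in wild type. Each kinase gene holds a microRNA gene within it, and Pank2 overlaps Rnf24 on the opposite strand. The sources used here do not say whether strand was used in counting, so reads of overlapping genes cannot be told apart.

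Neither later synthesis gene passed the threshold, and their differences had opposite signs. Ppcs, for the enzyme that joins cysteine to phosphopantothenate, held 13.1, 13.4 and 12.9 FPKM in knockout liver and 12.1, 10.98 and 10.98 in wild type. All 3 knockout values were above the wild type values, by a small margin (log2 fold change 0.20, 95% interval -0.07 to 0.47). Coasy, for the enzyme of the last steps, held 42.0, 47.2 and 47.6 FPKM in knockout liver and 62.3, 50.3 and 45.8 in wild type. These groups overlapped, and wild type replicate 1 was the highest library (log2 fold change -0.20, 95% interval -0.51 to 0.11). Without replicate 1 of both genotypes the Coasy difference was -0.02 and that of Ppcs 0.24.

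The vanin genes lie 24.8 kb apart on chromosome 10, and neither passed the threshold. Vnn1, the vanin of hepatocytes, held 18.2, 33.2 and 28.9 FPKM in knockout liver and 36.9, 34.5 and 34.9 in wild type. All knockout values were below the wild type values, but knockout replicate 2 by little, and knockout replicate 1 stood far below the rest. The means were 26.8 ± 7.72 and 35.4 ± 1.28 FPKM (SD, n = 3 each), and the log2 fold change was -0.43 (SE 0.19). It was -0.19 without knockout replicate 1 and -0.16 without replicate 1 of both genotypes, so most of its size rested on knockout replicate 1. Vnn3 held 34.0, 27.0 and 24.4 FPKM in knockout liver and 31.9, 25.6 and 26.8 in wild type. Here the groups overlapped, and replicate 1 was the highest library of each genotype (log2 fold change 0.01, 95% interval -0.33 to 0.35). Markers of neutrophils and monocytes were highest in the same 2 libraries. Their sum over 4 of 4 genes was 18.8 FPKM in knockout replicate 1 and 23.1 in wild type replicate 1, while the other 4 libraries held 4.77 to 7.99. The sums of hepatocyte (53150 and 48750 FPKM), lymphocyte (1.58 and 1.01) and red blood cell markers (236.3 and 343.3) were also highest in these 2 libraries. The part of any of these cell types in the level of Vnn3 was not tested. The ratio of Vnn1 to Vnn3 was 0.535 in knockout replicate 1 and 1.16 to 1.34 in the other 5 libraries.

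Nudt7 was lower in every knockout library. This gene (identifier 67528, chromosome 8, 114133574 to 114154731, plus strand, GRCm38) encodes the peroxisomal coenzyme A diphosphatase, and its promoter is the first of those printed above. It held 130.8, 169.1 and 154.9 FPKM in knockout liver and 274.8, 268.8 and 269.8 in wild type. The groups did not overlap, and the wild type libraries lay close together, with a coefficient of variation of 1.19% against 12.8% in the knockout. The mean fell by 44.1%, from 271 ± 3.23 to 152 ± 19.3 FPKM (SD, n = 3 each), a log2 fold change of -0.84 (SE 0.13, 95% interval -1.12 to -0.56).

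In the fit across all tested genes Nudt7 was past the threshold (limma, Benjamini-Hochberg adjusted p = 0.016) and the other 9 members were not (limma, adjusted p = 0.51 to 0.99). That is 1 of 10 members, lower in the knockout, beside 76 of 9968 tested genes (0.762%) past it in either direction and 29 (0.291%) in that direction. Among those 29 Nudt7 ranked at place 26 by size of the fold change. Separate ranges in the 2 genotypes were seen for 3 of 10 members, Nudt7, Vnn1 and Ppcs, which held for 15.4% of tested genes. As the members were chosen with this contrast known, nothing is read from these counts. The median log2 fold change was 0.017 over the 10 members and -0.028 over all tested genes. Nudt7 was no longer past the threshold once knockout replicate 3 was left out (limma, adjusted p = 0.072), nor once wild type replicate 2 (0.085) or wild type replicate 3 (0.10) was, nor with no filter on low values (0.053), at fold changes of -0.84 to -0.86. Without replicate 1 of both genotypes its fold change was -0.73 (SE 0.07; limma, adjusted p = 3.1e-04). That fit had 2 libraries per genotype and put 11.9% of tested genes past the threshold.

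**Figure D2:**
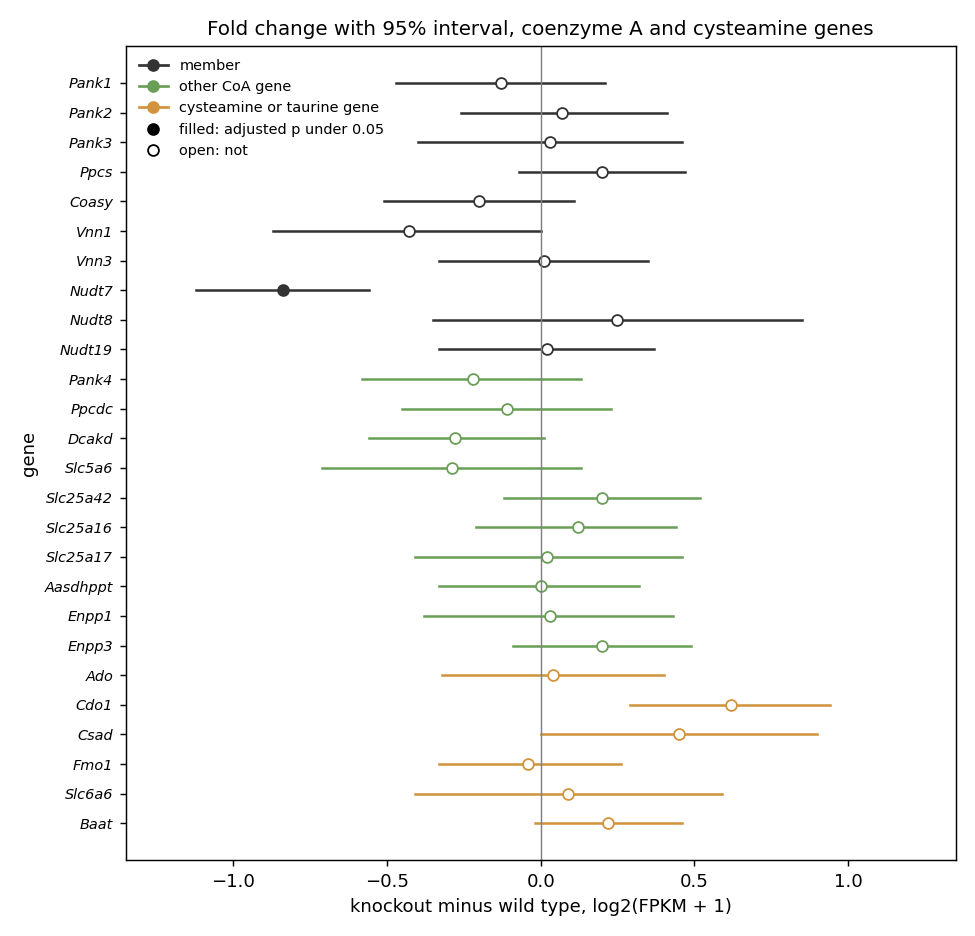
Knockout minus wild type on log2(FPKM + 1), with the 95% interval from limma, for the 10 members (black), other genes of coenzyme A handling (green) and genes of cysteamine and taurine handling (orange). Nudt7 at -0.84 is the only filled point, and the interval of Cdo1 (0.62) also lies off 0.

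Neither of the other hydrolase genes passed the threshold with all libraries. Nudt8, for the mitochondrial coenzyme A hydrolase (chromosome 19, 4000580 to 4002102), held 11.1, 24.5 and 25.0 FPKM in knockout liver and 18.95, 14.3 and 14.8 in wild type. Knockout replicates 2 and 3 were above every wild type library and knockout replicate 1 below them all. With all libraries the means were 20.2 ± 7.87 and 16.0 ± 2.56 FPKM (SD, n = 3 each) and the log2 fold change was 0.25 (SE 0.27, 95% interval -0.35 to 0.85). It was 0.61 without knockout replicate 1 (limma, adjusted p = 0.084), 0.07 without knockout replicate 2 and 0.06 without knockout replicate 3. Without replicate 1 of both genotypes it was 0.73 (SE 0.09; limma, adjusted p = 0.0019), in a fit with 2 libraries per genotype that put 11.9% of tested genes past the threshold. The annotation places an antisense gene, Gm16312, and a gene on the same strand, Gm49405, over Nudt8, so its fragments may be shared with them.

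Nudt19, for a peroxisomal hydrolase known mainly from kidney, held 22.2, 20.6 and 19.3 FPKM in knockout liver and 25.2, 19.9 and 16.9 in wild type. The knockout values lay within the wild type range (log2 fold change 0.02, 95% interval -0.33 to 0.37). An antisense gene overlaps it as well. Summed over the 3 hydrolase genes, the level was 164 to 214 FPKM in knockout liver and 301 to 319 in wild type. Nudt7 made up 78.8% ± 0.979 of that sum in knockout liver and 88.1% ± 1.75 in wild type (SD, n = 3 each), without overlap. The sum and the share mostly restate the difference in Nudt7, as Nudt8 and Nudt19 each overlapped between genotypes.

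As groups, synthesis and breakdown were compared by the mean log2(FPKM + 1) of their 5 genes in each library. The synthesis mean was 4.06, 4.27 and 4.30 in knockout liver and 4.13, 4.23 and 4.29 in wild type, nearly the same in both. The breakdown mean was 4.92, 5.29 and 5.18 in knockout liver and 5.48, 5.26 and 5.24 in wild type, with overlap. Synthesis minus breakdown was -0.914 ± 0.0877 in knockout liver and -1.11 ± 0.219 in wild type (SD, n = 3 each), a difference of 0.194. That is less than the SD in wild type, and it was 0.0336 once Nudt7 was left out of the breakdown genes. It was 0.07 once wild type replicate 1 was left out and 0.04 without both libraries numbered 1, and it was 0.28 without wild type replicate 3 and 0.24 without either wild type replicate 2 or knockout replicate 2.

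**Figure D3:**
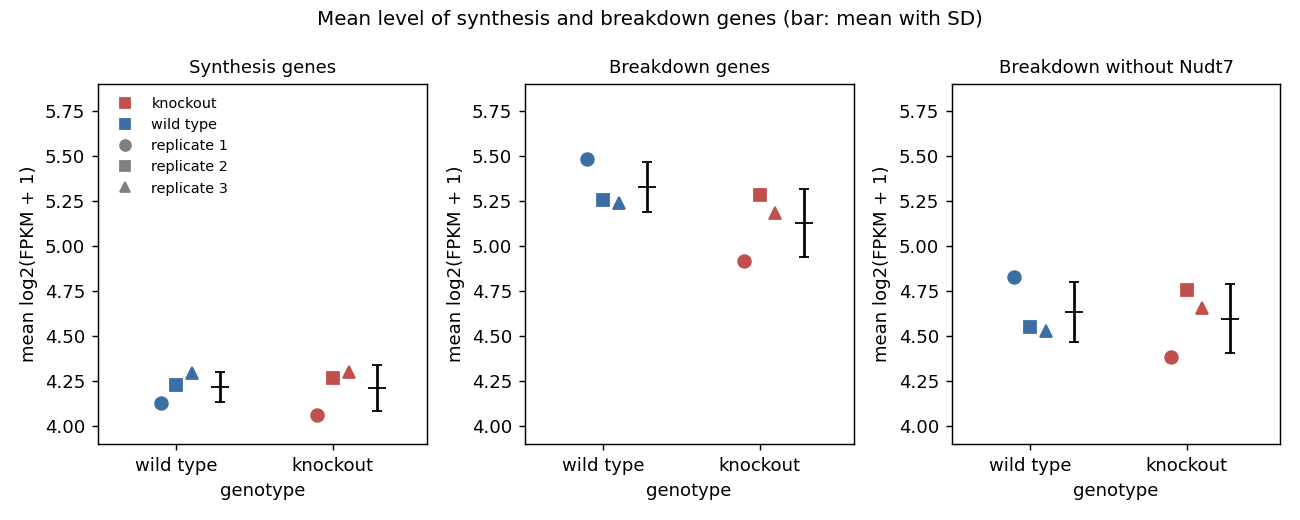
Mean log2(FPKM + 1) per library of the synthesis genes, the breakdown genes and the breakdown genes without Nudt7, by genotype, with replicate numbers as marker shapes and the group mean with SD beside them. The synthesis means overlap between 4.06 and 4.30, and the breakdown means overlap with and without Nudt7.

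Replicate 1 stood at an end of the range of its genotype in many of these genes, as any library often does among 3. It was the lowest library of its genotype for 7 of 10 members in knockout liver and for 3 of 10 in wild type, and the highest for 2 of 10 and 7 of 10. All 3 kinase genes were lowest in replicate 1 of both genotypes. Relative to replicates 2 and 3, replicate 1 stood at -0.344 for Pank1, -0.221 for Pank2 and -0.381 for Pank3 in the knockout, and at -0.386, -0.229 and -0.554 in wild type, on the log2 scale. All 5 breakdown genes were highest in wild type replicate 1, Nudt7 by only 0.0292. In knockout replicate 1 Vnn1 (-0.735), Nudt7 (-0.305) and Nudt8 (-1.09) were lowest and Vnn3 (0.393) and Nudt19 (0.147) highest. A test of this pattern was not made, as it was seen in these libraries first. The share of all tested genes with replicate 1 lowest or highest was not counted. Across all tested genes, knockout replicates 2 and 3 correlated at 0.991, and replicate 1 with them at 0.981 and 0.979. Wild type replicates 2 and 3 correlated at 0.992, and replicate 1 with each of them at 0.979.

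**Figure D4:**
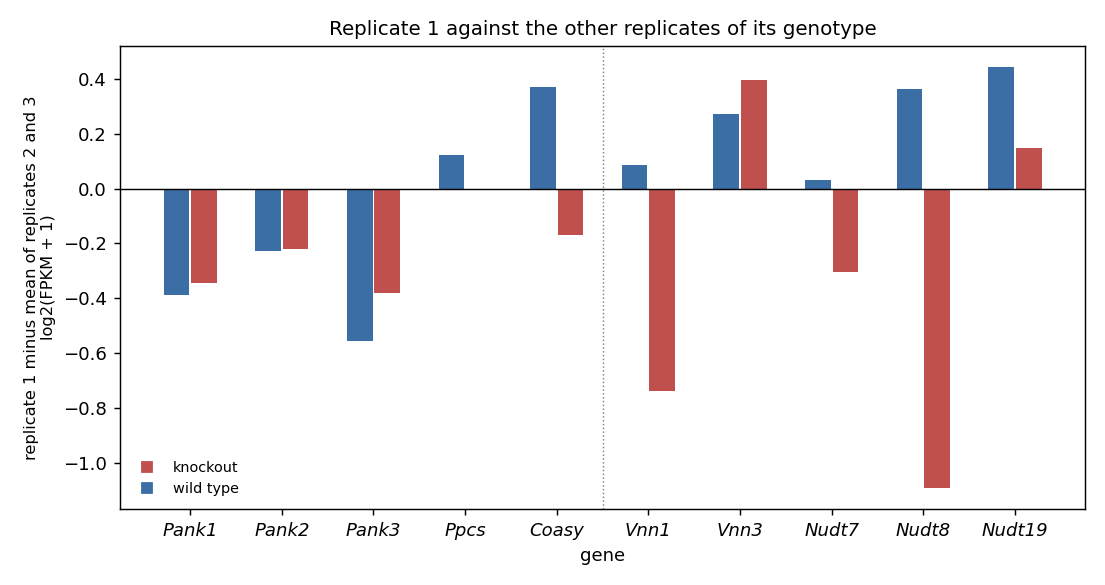
Bars give replicate 1 minus the mean of replicates 2 and 3 of the same genotype, on log2(FPKM + 1), for each gene. The 3 kinase genes are below 0 in both genotypes, and Vnn1 and Nudt8 are far below 0 in knockout liver and above 0 in wild type.

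Other genes of coenzyme A and pantothenate handling did not pass. Of 10 such genes, all tested, none rose and none fell (limma). None was under an unadjusted p of 0.05, beside 403 of 9968 tested genes higher and 587 lower. Of the 10, 5 had a positive and 5 a negative fold change, with a median of 0.009. The most abundant were Slc25a42, the mitochondrial carrier that imports coenzyme A (29.1 ± 3.66 FPKM in knockout liver and 25.2 ± 3.26 in wild type), and Slc25a16, a mitochondrial carrier gene (25.8 ± 4.64 and 23.5 ± 0.316; SD, n = 3 each). Their log2 fold changes were 0.20 (95% interval -0.12 to 0.52) and 0.12 (-0.21 to 0.44). Without replicate 1 of both genotypes none of the 10 passed either.

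Cysteamine, the other product of the vanins, can be oxidized to hypotaurine, which joins the path from cysteine to taurine. Of 7 genes of cysteamine and taurine handling 6 were in the table and tested, and none passed (limma). At an unadjusted p under 0.05, 1 of them, Cdo1, was higher, beside 403 of 9968 tested genes higher and 587 lower. Cdo1, the cysteine dioxygenase gene, held 981, 808 and 796 FPKM in knockout liver and 652, 512 and 524 in wild type. Its groups did not overlap, and the difference was 0.62 on the log2 scale (SE 0.14; adjusted p = 0.12 by limma). Baat, whose product joins bile acids to taurine or glycine, stood at 106 ± 2.50 and 90.6 ± 4.06 FPKM (SD, n = 3 each), also without overlap (log2 fold change 0.22; limma, adjusted p = 0.55). Without replicate 1 of both genotypes, a fit in which 6.92% of all tested genes rose, 2 of the 6 did, Cdo1 (0.63; limma, adjusted p = 2.0e-04) and Csad, the cysteine sulfinate decarboxylase gene (0.81; limma, adjusted p = 0.0014). With all libraries Csad stood at 0.45 (limma, adjusted p = 0.51).

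PPARα targets were set beside Vnn1 and Pank1 through a list of 23 other targets, written with earlier results of these data known. Of the 23, all tested, 3 rose, none fell and 20 did not pass, with a median log2 fold change of 0.128. Over all tested genes 47 (0.472%) rose and 29 (0.291%) fell, with a median of -0.028. Those past the threshold were the fatty acid omega-hydroxylase genes Cyp4a10 (518 ± 30.1 FPKM in knockout liver and 209 ± 22.1 in wild type) and Cyp4a14 (596 ± 12.8 and 188 ± 54.8), and the acyl-CoA thioesterase gene Acot3 (9.55 ± 1.69 and 4.45 ± 0.903; SD, n = 3 each). Their log2 fold changes were 1.31, 1.69 and 0.95 (limma, adjusted p = 8.8e-04, 0.0020 and 0.045). The calls of Cyp4a10 and Cyp4a14 held in 12 of 12 alternatives, that of Acot3 in 3 of 12. Without each single replicate in turn Acot3 kept its call only without wild type replicate 1 (limma, adjusted p = 0.030 to 0.21). Of the 23, 11 rose and 1 fell without replicate 1 of both genotypes, where 6.92% of all tested genes rose and 4.95% fell. Vnn1 (-0.43) and Pank1 (-0.13) were on the other side of 0, as were 3 of the 23. Neither Vnn1 nor Pank1 passed the threshold, and in the fit without replicate 1 of both genotypes they stood at -0.16 and -0.14. Fabp1, which encodes a fatty acid binding protein and was the most abundant target, had a log2 fold change of 0.02 with all libraries. Without replicate 1 of both genotypes it was 0.47 (SE 0.06; limma, adjusted p = 0.0014), among the 11 that rose. Fabp1 was also lowest in knockout replicate 1, at 2468 FPKM against 5421 and 5521 in knockout replicates 2 and 3.

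The Nudix family beyond the 3 hydrolases gave a median log2 fold change of -0.037 over 15 tested genes, in a range of -0.48 to 0.38. None passed (limma). At an unadjusted p under 0.05, 1 of the 15 was higher and 1 lower, beside 403 and 587 of 9968 tested genes. The table held 18 Nudix genes beyond the 3 hydrolases, of which the other 3 were too low to test. Within 0.5 Mb of Nudt7 the tested genes were Mon1b, at -0.04, and Wwox, at -0.15, and neither passed. Of the 15, only Nudt3 rose without replicate 1 of both genotypes (0.51; limma, adjusted p = 0.034). In that fit 6.92% of all tested genes rose, so nothing is read from this call. Both sets were chosen after the difference in Nudt7 had been seen.

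Genes with the most similar profile were sought for a hydrolase, a kinase and a vanin gene, by the mean absolute difference of log2(FPKM + 1) over the 6 libraries after centring each gene. For Nudt7 they were Btbd9 (0.055), Pklr, the liver pyruvate kinase gene (0.056), and Cpne8 (0.067). Pklr held 40.5, 51.0 and 51.6 FPKM in knockout liver and 86.0, 91.4 and 83.1 in wild type. For Pank1 they were the integrin gene Itgb1 (0.012), Pik3cb (0.017) and Camsap2 (0.021), all low in replicate 1 of both genotypes. For Vnn1 they were Atp23 (0.045), Nat8f1 (0.056) and Ctgf (0.064), each lowest in knockout replicate 1. A low difference is a description of these 6 libraries, picked from 9968 tested genes.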

How the data were processed

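Liver RNA of 3 Cyp2e1-/- and 3 Cyp2e1+/+ libraries was analysed from the authors' deposited table of FPKM values, given to 2 decimals, 1 column per sample. The submitters' processing notes name HISAT and mm10. On the program behind the FPKM values and its annotation, nothing is stated in the sources used here. The table states no read depth. Low values of short genes lay near steps (67.0% to 74.9% came within 0.15 of a step), too loosely to recover whole reads, so no count test was run. By chance 30% would at a single fixed depth. The depth and a length offset were chosen to give the largest share, and the chance level of that largest share was not estimated. Depth estimated in this way was highest in knockout replicate 1.

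The members and gene lists were chosen with earlier results of these data known. The test was limma 3.58.1 in R 4.3.3 (lmFit, eBayes with trend) on log2(FPKM + 1), over the 9968 genes that reached 1 FPKM in 3 or more samples, adjusted by Benjamini-Hochberg, with a threshold of adjusted p under 0.05. A fold change on this scale understates that of low genes. Groups follow the genotype label. The script was tested on simulated data. Positions came from RefSeq on GRCm38, where all 10 members matched by gene identifier, and overlapping genes from GENCODE on that build. Promoter matches used both strands.

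Named genes are the 10 members, Cyp2e1, list genes past the threshold, the 2 most abundant tested genes of each list, and the 3 most similar profiles for Vnn1, Pank1 and Nudt7. Of these, 1 gene is not reported here. Others were chosen after their values were seen. Alternatives were another pseudocount (0.1), no filter, median centring, the replicate as a block, no trend, each replicate left out, and replicate 1 of both genotypes left out.

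Replicate numbers come from the titles. The labels do not say that equal numbers pair the mice, so the samples were treated as paired in 1 alternative only. The correlation of same-numbered samples' deviations from their group means was 0.30, 0.198 and 0.157. For knockout replicate 3 the closest wild type sample was replicate 2 (0.212), so these values cannot settle whether the samples are paired.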

Additional observations from a re-analysis of the deposited data

How the results depend on the processing

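Nudt7 kept its direction under all 12 alternatives, at -0.92 to -0.73, and was past the threshold in 8 of them. With the replicate block, a pairing that the labels do not state, Nudt7 stood at -0.84 (limma, adjusted p = 0.041). With the block 72 genes were past the threshold against 76 without it, and the block changed no member's call. The number of members past the threshold, 1 with all samples, was 0 with no filter on low values (more genes were tested), 2 without replicate 1 of both genotypes (Nudt7 and Nudt8), and 0 to 1 when a single replicate was left out. The number of all genes past it was 32 with no filter, 1183 without replicate 1 of both genotypes, and 29 to 211 when a single replicate was left out. The cause of these shifts was not tested. Median centring moved the median fold change of all genes by 0.028. The sign of the fold change held in all 12 alternatives for Pank1, Ppcs, Coasy, Vnn1, Nudt7 and Nudt8, and in 11, 10, 9 and 8 of them for Pank2, Nudt19, Pank3 and Vnn3. Synthesis minus breakdown (0.194) ranged from 0.04 to 0.28 over the alternatives run; each move was under the SD pooled over both genotypes (0.167), though leaving out wild type replicate 1 (0.07) or both libraries numbered 1 (0.04) moved it by more than the knockout SD (0.0877).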
